A study of Homo sapiens with 12 samples.

Results

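The genes described are 10 secreted factors that promote or restrain the growth of blood and lymph vessels: VEGFA, VEGFB, VEGFC, PGF, ANGPTL2, ANGPTL4, SERPINF1, THBS1, THBS2 and ANGPT1. They were found by their symbols in the count table, and all 10 of 10 were present among 62757 genes. Of these, 7 were among the 13896 genes with enough reads for a test, and PGF, THBS2 and ANGPT1 were not. VEGFB and ANGPTL2 were higher and THBS1 was lower in cells given the codon-optimized AIPL1 vector than in each of the other groups, while ANGPTL4 and VEGFC were higher in cells given the wild-type AIPL1 vector. A control library was left out of that fit. With it put back, the rise of VEGFC over the control was not called, and its THBS1 level was the nearest to the codon-optimized libraries. VEGFA was not called in any of the 6 comparisons.

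Vessel growth is set by the balance between secreted activators and inhibitors. The vascular endothelial growth factors bind receptor tyrosine kinases (FLT1, KDR and FLT4) and neuropilins, angiopoietin 1 binds the receptor TEK, and thrombospondins restrain vessels through CD36 and CD47. In the eye the retinal pigment epithelium secretes both sides of this balance, VEGFA toward the choroid and the inhibitor PEDF, the product of SERPINF1, toward the retina.

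The cells were ARPE-19, an established line of human retinal pigment epithelium, and every group had first been kept for 120 h in 3 µM fenretinide, a synthetic retinoid used to drive trans-differentiation. Of the 4 groups, 3 then received adeno-associated virus serotype 9 at 100000 vector genomes per cell: AAV9-AIPL1co with a codon-optimized AIPL1 sequence, AAV9-AIPL1wt with the native one, and AAV9-GFP with a fluorescent protein gene, and the non-transduced control received no vector. Each group had 3 replicates, which the study calls biological, and the time from transduction to harvest is given as 24 h in one place of the study and 18 h in another. Control replicate 1 was left out of the fit, following the published design, so the control had 2 libraries there, and the omitted library is printed beside the members and, where it ends a call, beside other genes. The data come from 1 cell line, no library without fenretinide was analysed here, and in such bulk RNA a change in the number of cells that make a transcript and a change in the transcript per cell cannot be told apart.

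Libraries held 6322811 to 9075660 gene counts. The row for codon-optimized AIPL1 had 11, 13 and 19 counts in the AAV9-AIPL1co libraries and 0 in the other 9, whereas the row for the wild-type transgene was at 0 in all 12 and the AIPL1 gene itself had at most 1 count, so the transgene gave no check of the AAV9-AIPL1wt label. A count of 0 allows up to 3 counts in a library (a 1-sided 95% bound). This covers counting error only, and not reads set aside because they mapped to several places. File names carried 2 dates. Both controls in the fit were of the second date and control replicate 1 was the only control of the first. Among the controls, the difference between control replicate 1 and the others therefore cannot be told apart from the date. Each transduced group held libraries of both dates. Of the pigment epithelium markers, RPE65, TYR and DCT were at 0 in all 12 libraries, whereas OTX2 stood at 435 to 689.7 normalized counts and KRT18 at 1148 to 3006, MITF at 128 to 243, RDH5 at 14.3 to 55.3, RLBP1 at 7.69 to 24.9 and PMEL at 2.12 to 9.63, and among endothelial markers ERG was at 0 and PECAM1 at most 14.9, with ROBO4 the exception at 105 to 245. Epithelial keratins, OTX2 and MITF were thus clearly present, and among visual cycle and pigment genes some were at 0 and others at low levels.

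Normalized counts are read counts scaled to a common library size, and a gene was called at an adjusted p under 0.05 by the quasi-likelihood test of edgeR, with the Benjamini-Hochberg adjustment over all 13896 genes. A stricter rule, the one used in the published analysis, took only genes that differed by about 3-fold or more and had an adjusted p under 0.005. All log2 fold changes below come from that 1 fit, and the 3 comparisons with the control share its 2 libraries, as the comparisons with AAV9-GFP share those of AAV9-GFP.

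Between AAV9-AIPL1co and the control, 2 of the 7 members tested were higher and 2 lower, beside 22.4% of all genes higher and 24.5% lower, and 2 members passed the stricter rule beside 3.45% of all genes. Between AAV9-AIPL1wt and the control, 4 members were higher and 0 lower, beside 26.4% and 30% of all genes, and 1 passed the stricter rule beside 7.27%. Between AAV9-AIPL1co and AAV9-GFP, 2 members were higher and 2 lower, beside 16.1% and 14.8%, and 2 passed the stricter rule beside 1.63%. Calls were therefore common among all genes, and the number of members called is given as a description. The counts called in the gene lists below are descriptions too, and whether they differ from the shares of all genes was not tested.

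Between AAV9-AIPL1wt and AAV9-GFP, 2 members were higher and 0 lower, beside 25.6% and 25.5% of all genes, and 1 passed the stricter rule beside 5.2%. Between the AIPL1 vectors, the codon-optimized one had 2 members at higher and 3 at lower levels, beside 22.3% and 19.3% of all genes, and 3 passed the stricter rule beside 2.76%. Between AAV9-GFP and the control, edgeR called 0 of the 7 members, beside 2.3% of all genes higher and 6.66% lower and 0% by the stricter rule. In that comparison 2 members had an unadjusted p under 0.05, DESeq2 called 1 member and limma voom 0.

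**Figure D1:**
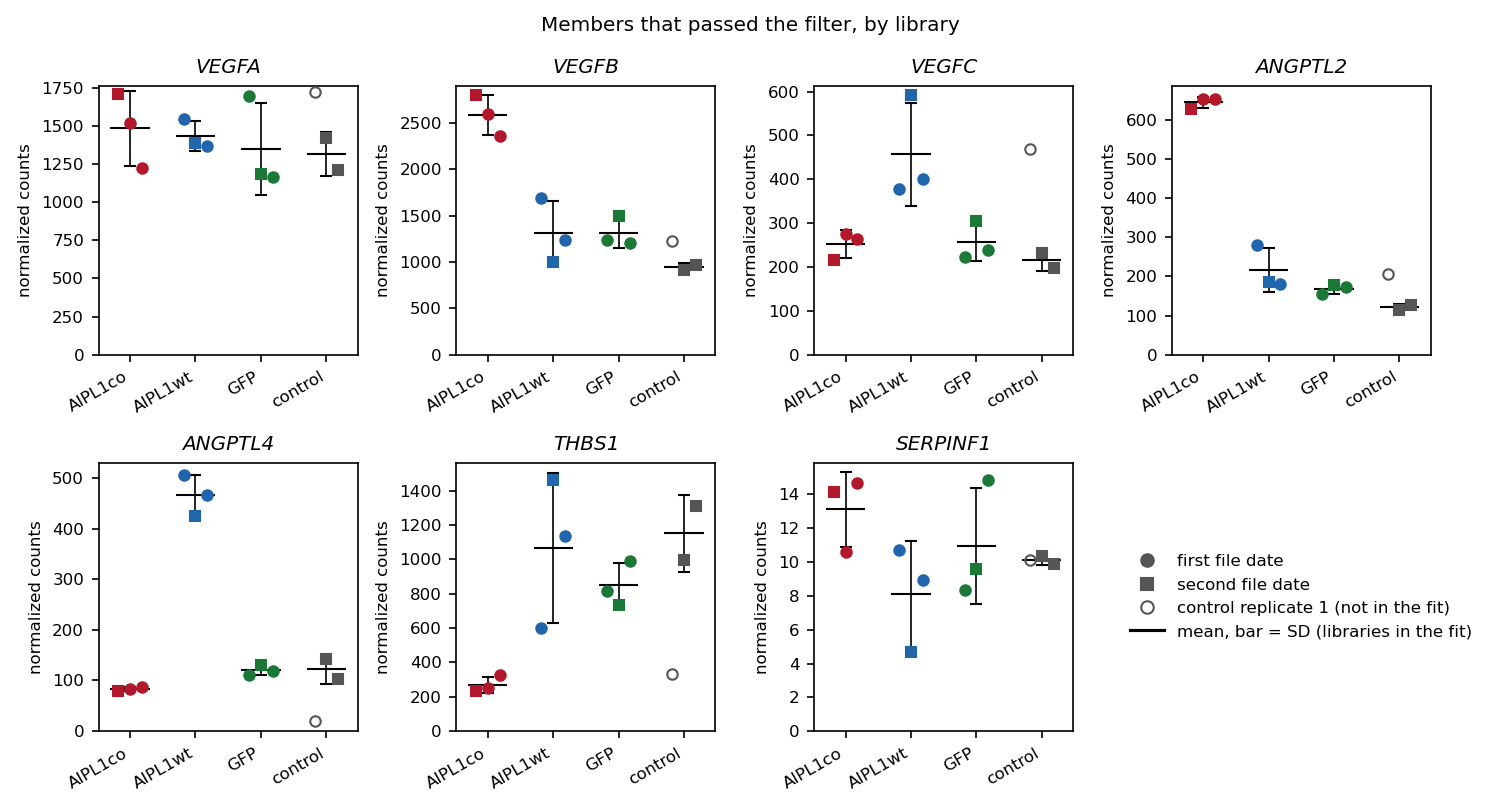
Normalized counts (vertical axes, from 0) of the 7 members tested in each of the 12 libraries, by group, with the mean and SD of the libraries in the fit, circles and squares for the first and second file date, and an open circle for control replicate 1. VEGFB and ANGPTL2 with AAV9-AIPL1co and ANGPTL4 with AAV9-AIPL1wt lie apart from every other group, while VEGFA overlaps among all 4.

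**Figure D2:**
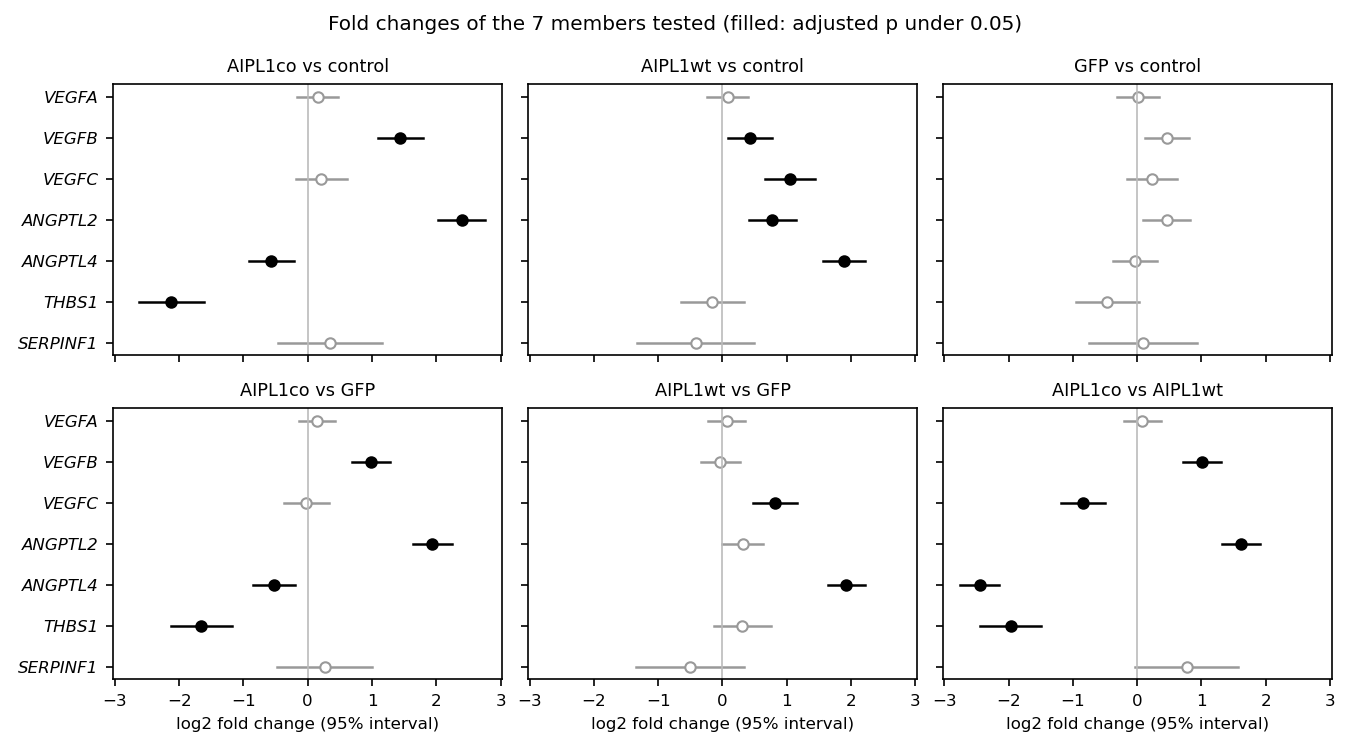
Log2 fold change with its 95% interval (horizontal axes) of the 7 members in the 6 comparisons from edgeR, filled where the adjusted p was under 0.05. AAV9-GFP against the control has no filled point, and ANGPTL4 lies on opposite sides of 0 with the AIPL1 vectors against the control, at -0.57 and 1.89.

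VEGFA (chr6:43770184-43786487, plus strand, ENSG00000112715) encodes the principal inducer of vessel growth and permeability. AAV9-AIPL1co libraries held 1710.3, 1519 and 1225 normalized counts of VEGFA, and AAV9-AIPL1wt libraries held 1549, 1388 and 1371. The counts reached 1696, 1183 and 1166 with AAV9-GFP and 1421 and 1215 in the control, with 1723 in control replicate 1. All groups overlapped, and the spread within AAV9-GFP was wider than the distance between any group means. The log2 fold change against the control was 0.16 with AAV9-AIPL1co (95% interval -0.16 to 0.48, edgeR adjusted p = 0.416) and 0.08 with AAV9-AIPL1wt (-0.24 to 0.40, adjusted p = 0.676). These intervals leave out a change of 1.5-fold or more in either direction. Of the reads on VEGFA exons 4.55% were set aside because another gene shares the bases.

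VEGFB (chr11:64234584-64239264, plus strand, ENSG00000173511), a ligand of FLT1 and NRP1 known for vessel survival and for fatty acid transport into muscle, gave the highest reads per length of the 10 in every group. The 250 bases before its start, chr11:64234334-64234583 on the plus strand of GRCh38.p14 from RefSeq, are shown because VEGFB rose with AAV9-AIPL1co in all 3 comparisons. In this and the later windows 6 motifs were searched on both strands: ACGTG and GCGTG, cores of hypoxia response elements, GGAATG, the core bound by TEAD factors, TGANTCA, the AP-1 site, TATAAA, the TATA box, and GGGCGG, the GC box. Capitals mark each match. RefSeq windows were matched for 7 of the 10 members.

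VEGFB: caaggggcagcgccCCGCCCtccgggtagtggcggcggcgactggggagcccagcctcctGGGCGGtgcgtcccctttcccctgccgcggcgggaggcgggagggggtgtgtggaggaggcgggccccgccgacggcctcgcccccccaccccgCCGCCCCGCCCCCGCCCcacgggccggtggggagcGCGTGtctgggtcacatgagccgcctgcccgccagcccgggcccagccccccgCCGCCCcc

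This window held 6 GC boxes, of which a pair shares 1 base, and 1 GCGTG, and 82.8% of its bases were G or C against a median of 58% over 27305 windows of the same length. GC boxes were found in 42.3% of all windows and GCGTG in 31.9%. The letters are a description and show no bound factor.

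VEGFB stood at 2799, 2599 and 2363 normalized counts with AAV9-AIPL1co. It stood at 1694, 1005 and 1239 with AAV9-AIPL1wt and at 1239.5, 1499 and 1207 with AAV9-GFP. The control libraries had 912 and 973, and control replicate 1 had 1229. Each AAV9-AIPL1co library was above all 9 others, while AAV9-AIPL1wt and AAV9-GFP overlapped. VEGFB was higher with AAV9-AIPL1co than in the control by 1.44 on the log2 scale (SE 0.17, 2.71-fold, edgeR adjusted p = 2.4e-06). Against AAV9-GFP the log2 difference was 0.98 (SE 0.14, adjusted p = 4.75e-05), and against AAV9-AIPL1wt it was 1.01 (SE 0.14, adjusted p = 2.43e-05). Within the first and the second file date the log2 ratio of AAV9-AIPL1co to AAV9-GFP was 1.02 and 0.90. Here and in the later within-date ratios to AAV9-GFP, the first date has 2 libraries per group and the second 1.

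With AAV9-AIPL1wt, VEGFB was called higher than in the control by 0.43 (SE 0.16, edgeR adjusted p = 0.0302), but the adjusted p was 0.115 with control replicate 1 in the fit, 0.0933 without AAV9-AIPL1wt replicate 1, 0.114 without control replicate 2 and 0.066 without control replicate 3. GC offsets reduced the VEGFB difference to 0.18 (adjusted p = 0.25). Between AAV9-AIPL1wt and AAV9-GFP the VEGFB difference was -0.03 (95% interval -0.33 to 0.27, adjusted p = 0.873).

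VEGFC (chr4:176683538-176792922, minus strand, ENSG00000150630) encodes the lymphatic growth factor that signals through FLT4. AAV9-AIPL1wt libraries held 378, 593 and 401 normalized counts of VEGFC, and AAV9-AIPL1co libraries held 217, 275 and 264. They were 224, 305 and 239 with AAV9-GFP and 233 and 198 in the control, with 469.7 in control replicate 1. The AAV9-AIPL1wt libraries lay above all others except control replicate 1, which lay within their range.

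VEGFC was higher with AAV9-AIPL1wt than in the control by 1.05 (SE 0.19, edgeR adjusted p = 0.000116) and than with AAV9-GFP by 0.82 (SE 0.16, adjusted p = 0.000415). Between the AIPL1 vectors VEGFC was lower with the codon-optimized one, at a log2 difference of -0.84 (SE 0.16, adjusted p = 0.000519). With control replicate 1 in the fit, VEGFC differed from the control by 0.61 (adjusted p = 0.0734). Within the first file date, where that library is the lone control, the VEGFC difference was -0.26 (adjusted p = 0.139). The comparison with AAV9-GFP does not use the control, and there the log2 ratios of VEGFC within the file dates were 0.75 and 0.96.

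Beside VEGFA, which was not called, the ratio of VEGFB to VEGFA counts within a library was 1.64, 1.71 and 1.93 with AAV9-AIPL1co and 0.642 to 1.27 in the other 9 libraries, so that VEGFB exceeded VEGFA by more with that vector than in any other library. The summed normalized counts of VEGFA, VEGFB, VEGFC and PGF ranged from 3854 to 4732 for the codon-optimized vector, from 2987 to 3621 for the wild-type vector and from 2612 to 3161 for AAV9-GFP, and the control had 2387 and 2567, while control replicate 1 had 3432, within the wild-type range. These are ratios and sums of counts, not of counts per length.

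**Figure D3:**
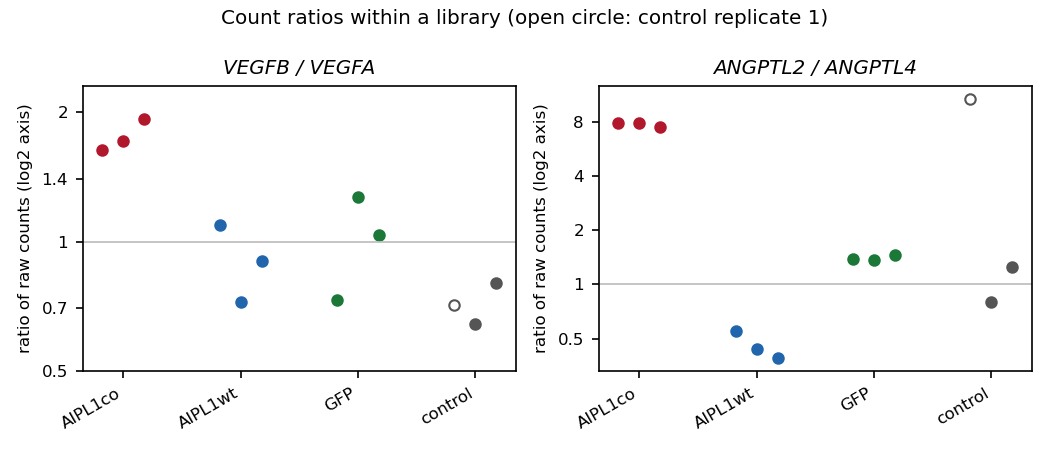
Ratio of raw counts (log2 axes) of VEGFB to VEGFA and of ANGPTL2 to ANGPTL4 within each library, by group, with a grey line at 1 and an open circle for control replicate 1. VEGFB to VEGFA is highest in the 3 AAV9-AIPL1co libraries, and ANGPTL2 to ANGPTL4 is 7.51 to 7.90 there, under 1 in the 3 AAV9-AIPL1wt libraries and 10.7 in control replicate 1.

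ANGPTL2 (chr9:127087348-127122635, minus strand, ENSG00000136859) encodes a secreted glycoprotein known for roles in inflammation and vessel growth, and it lies within RALGPS1 on the other strand with 0 shared exon bases. It is one of the genes the study picked from these libraries, so its direction here is not independent evidence. Its window, chr9:127122636-127122885 on the minus strand, is shown because ANGPTL2 gave the largest rise of any member with AAV9-AIPL1co.

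ANGPTL2: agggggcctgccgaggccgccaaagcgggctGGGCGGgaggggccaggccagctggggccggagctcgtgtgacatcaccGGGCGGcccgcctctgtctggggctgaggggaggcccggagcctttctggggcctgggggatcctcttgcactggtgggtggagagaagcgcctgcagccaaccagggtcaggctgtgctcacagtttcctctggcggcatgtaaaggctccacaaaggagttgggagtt

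The ANGPTL2 window held 2 GC boxes and no match to the 5 other motifs, and 68.4% of its bases were G or C.

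ANGPTL2 stood at 628, 654 and 653 normalized counts with AAV9-AIPL1co. It stood at 280.3, 185 and 182 with AAV9-AIPL1wt, at 155, 179 and 172 with AAV9-GFP and at 114 and 128 in the control, with 207 in control replicate 1. The AAV9-AIPL1co libraries lay close together (SD 14.6, n = 3) and far above all others. ANGPTL2 was higher with AAV9-AIPL1co than in the control by 2.39 (SE 0.17, 5.26-fold, edgeR adjusted p = 1.54e-08), than with AAV9-GFP by 1.94 (SE 0.14, adjusted p = 4e-08) and than with AAV9-AIPL1wt by 1.62 (SE 0.14, adjusted p = 1.76e-07). Within the file dates the log2 ratios of AAV9-AIPL1co to AAV9-GFP were 2.00 and 1.81, and against control replicate 1 alone the first-date difference was 1.69 (adjusted p = 8.19e-09).

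With AAV9-AIPL1wt, ANGPTL2 exceeded the control by 0.78 (SE 0.17, edgeR adjusted p = 0.00103), and with control replicate 1 in the fit by 0.52 (adjusted p = 0.0541). ANGPTL2 differed between AAV9-AIPL1wt and AAV9-GFP by 0.32 (95% interval 0.00019 to 0.64, adjusted p = 0.0874), and between AAV9-GFP and the control by 0.46 (0.09 to 0.83, adjusted p = 0.102). Neither of these passed the threshold, and without AAV9-AIPL1wt replicate 2 or 3 the ANGPTL2 difference to AAV9-GFP was 0.43 and 0.45 (adjusted p = 0.0243 and 0.0261).

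ANGPTL4 (chr19:8363289-8374370, plus strand, ENSG00000167772) encodes an inhibitor of lipoprotein lipase and is a textbook target of both hypoxia and the fatty acid receptors called PPARs. Its window, chr19:8363905-8364154 on the plus strand, is shown because ANGPTL4 rose with the wild-type vector and fell with the codon-optimized one. The window precedes the RefSeq start, which lies inside the Gencode gene span given above, and motif positions count from that RefSeq start.

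ANGPTL4: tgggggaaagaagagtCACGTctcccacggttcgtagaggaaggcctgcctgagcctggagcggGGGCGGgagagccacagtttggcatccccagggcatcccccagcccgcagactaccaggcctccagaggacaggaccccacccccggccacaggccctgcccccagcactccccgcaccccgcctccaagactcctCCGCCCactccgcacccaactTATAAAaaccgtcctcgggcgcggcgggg

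The ANGPTL4 window held ACGTG on the reverse strand 230 to 234 bases before the start and a TATA box 24 to 29 bases before it, besides 2 GC boxes. ACGTG was present in 18.7% of all windows and TATAAA in 11.1%.

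ANGPTL4 stood at 506, 424 and 466 normalized counts with AAV9-AIPL1wt and at 80.1, 82.8 and 87.0 with AAV9-AIPL1co. It stood at 112, 131 and 118 with AAV9-GFP and at 142 and 102 in the control, with only 19.4 in control replicate 1. The AAV9-AIPL1wt libraries lay above all 9 others, and the AAV9-AIPL1co libraries lay below those of AAV9-GFP and the 2 controls of the fit but above control replicate 1. ANGPTL4 was higher with AAV9-AIPL1wt than in the control by 1.89 (SE 0.16, 3.69-fold, edgeR adjusted p = 3.58e-08) and than with AAV9-GFP by 1.92 (SE 0.14, adjusted p = 8.48e-09). Between the AIPL1 vectors ANGPTL4 was 5.47-fold lower with the codon-optimized one, a log2 difference of -2.45 (SE 0.14, adjusted p = 1.64e-09). Within the file dates the log2 ratios of AAV9-AIPL1wt to AAV9-GFP were 2.08 and 1.70.

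The fall of ANGPTL4 with AAV9-AIPL1co was smaller, at -0.57 against the control (SE 0.17, edgeR adjusted p = 0.0101) and -0.53 against AAV9-GFP (SE 0.15, adjusted p = 0.0143). With control replicate 1 in the fit, ANGPTL4 differed by -0.07 from the control (adjusted p = 0.909) and by -0.53 from AAV9-GFP (adjusted p = 0.403). Without control replicate 2 the ANGPTL4 difference to the control was -0.30 (adjusted p = 0.256), and without AAV9-GFP replicate 2 that to AAV9-GFP was -0.46 (adjusted p = 0.0561). Within the first file date, against control replicate 1 alone, ANGPTL4 was higher with AAV9-AIPL1co, by 2.15 (adjusted p = 3.6e-07). The ratio of ANGPTL2 to ANGPTL4 counts ranged from 7.51 to 7.90 for the codon-optimized vector, from 0.390 to 0.554 for the wild-type vector and from 1.37 to 1.46 for AAV9-GFP, and it was 0.801 and 1.25 in the control and 10.7 in control replicate 1.

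THBS1 (chr15:39581079-39599466, plus strand, ENSG00000137801) encodes thrombospondin 1, a matrix glycoprotein that inhibits vessel growth and activates TGF-beta. Its window, chr15:39580829-39581078 on the plus strand, is shown because THBS1 was the inhibitor that fell with AAV9-AIPL1co.

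THBS1: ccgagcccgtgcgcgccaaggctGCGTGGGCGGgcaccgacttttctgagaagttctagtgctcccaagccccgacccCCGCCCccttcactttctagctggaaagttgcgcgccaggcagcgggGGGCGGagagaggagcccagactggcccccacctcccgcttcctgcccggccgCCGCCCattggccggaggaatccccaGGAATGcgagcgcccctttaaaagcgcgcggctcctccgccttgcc

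The THBS1 window held GGAATG 41 to 46 bases before the start, a motif found in 11.9% of all windows, and GCGTG, which shares 1 base with the first of 4 GC boxes.

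THBS1 stood at 234, 249 and 324 normalized counts with AAV9-AIPL1co. It stood at 599, 1459.5 and 1137 with AAV9-AIPL1wt, at 818, 737 and 989 with AAV9-GFP and at 994 and 1312 in the control, with 335 in control replicate 1. All AAV9-AIPL1co libraries were below all others, and control replicate 1 was the nearest to them. THBS1 was lower with AAV9-AIPL1co than in the control, with a log2 fold change of -2.12 (SE 0.24, 4.35-fold, edgeR adjusted p = 2.32e-06). Against AAV9-GFP the log2 difference was -1.66 (SE 0.23, adjusted p = 2.71e-05), and against AAV9-AIPL1wt it was -1.97 (SE 0.23, adjusted p = 3.2e-06). Within the file dates the log2 ratios of AAV9-AIPL1co to AAV9-GFP were -1.66 and -1.66.

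The THBS1 difference between AAV9-AIPL1co and the control was -1.71 with control replicate 1 in the fit (adjusted p = 0.00438). Against control replicate 1 alone, within the first file date, it was -0.20 (adjusted p = 0.486). THBS1 differed between AAV9-AIPL1wt and the control by -0.16 (95% interval -0.64 to 0.33, edgeR adjusted p = 0.585) and between AAV9-GFP and the control by -0.46 (-0.95 to 0.02, adjusted p = 0.204). Without AAV9-AIPL1wt replicate 1, its lowest library, the THBS1 difference between AAV9-AIPL1wt and AAV9-GFP went from 0.31 (adjusted p = 0.23) to 0.62 (adjusted p = 0.00188). Of the reads on THBS1 exons 8.58% were set aside as shared, since 411 bases overlap exons of THBS1-AS1 and 448 those of FSIP1.

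SERPINF1 (chr17:1762029-1777565, plus strand, ENSG00000132386), which encodes PEDF, the vessel inhibitor for which pigment epithelium is known, stood near the detection limit. It had 5 to 15 counts in a library and 4.66 to 14.9 normalized counts, and the groups overlapped. The largest SERPINF1 difference was between AAV9-AIPL1co and AAV9-AIPL1wt, at 0.77 (95% interval -0.03 to 1.57, edgeR adjusted p = 0.116), an interval that holds both 0 and a change of 1.5-fold.

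PGF, THBS2 and ANGPT1 had too few reads for the test. PGF (chr14:74941834-74955626, minus strand, ENSG00000119630), a second ligand of FLT1, had 31 counts in all: 7, 4 and 1 in the AAV9-AIPL1co libraries, 0, 2 and 1 for AAV9-AIPL1wt, 2, 1 and 0 for AAV9-GFP and 1 and 1 in the control, while 11 of the 31 were in control replicate 1. ANGPT1 (chr8:107249482-107498055, minus strand, ENSG00000154188), the vessel-stabilizing ligand of TEK, had 3 counts in all with AAV9-AIPL1co (exact Poisson 95% interval 0.619 to 8.77), 5 with AAV9-AIPL1wt, 10 with AAV9-GFP and 16 in the 2 controls of the fit (9.15 to 26.0), with 4 in control replicate 1. The intervals cover counting error only. When all genes with a count were tested, edgeR gave ANGPT1 an adjusted p of 0.00603 between AAV9-AIPL1co and the control and of 0.0438 between AAV9-AIPL1wt and the control, and DESeq2 gave unadjusted p of 0.0323 and 0.123, with no adjusted p for ANGPT1 in the first and 0.217 in the second.

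THBS2 (chr6:169215780-169254050, minus strand, ENSG00000186340), the other thrombospondin inhibitor, had 12 counts in 12 libraries. The low THBS2 count depended on the counting: 31.2% of its exon bases overlap exons of the antisense gene THBS2-AS1, and 92.5% of the 161 reads found when both strands were summed had been set aside as shared. Summed over strands there were 19, 23 and 11 reads in the AAV9-AIPL1co libraries, 5, 8 and 10 for AAV9-AIPL1wt, 10, 13 and 14 for AAV9-GFP and 12, 13 and 23 in control replicates 1, 2 and 3. The library kit did not mark strand, so reads of THBS2 and of THBS2-AS1 cannot be told apart.

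**Figure D4:**
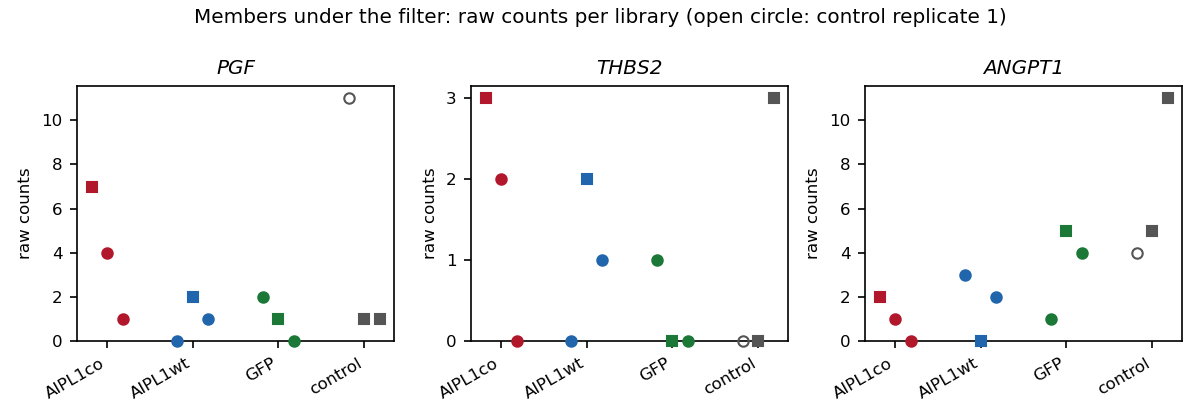
Raw counts (vertical axes, from 0) of PGF, THBS2 and ANGPT1, the members with too few reads for the test, in each of the 12 libraries, with circles and squares for the first and second file date and an open circle for control replicate 1. No library holds more than 11 counts of any of them, and the PGF maximum is control replicate 1.

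Per kilobase of transcript, VEGFB and VEGFA led in every group, and the order below them differed. With AAV9-AIPL1co the mean level in normalized counts per kilobase was 1433 ± 121 for VEGFB, 411 ± 67.8 for VEGFA, 187 ± 4.24 for ANGPTL2, 112 ± 13.8 for VEGFC, 44.5 ± 1.87 for ANGPTL4 and 34.5 ± 6.22 for THBS1 (SD, n = 3). In the control it was 522 ± 23.6 for VEGFB, 365 ± 40.2 for VEGFA, 148 ± 28.8 for THBS1, 95.4 ± 10.9 for VEGFC, 65.3 ± 15.1 for ANGPTL4 and 35.1 ± 2.84 for ANGPTL2 (SD, n = 2). Thus ANGPTL2 stood last of these 6 in the control and next after VEGFA with AAV9-AIPL1co, and THBS1 moved the other way. The control order rests on those 2 libraries, since in control replicate 1 ANGPTL2 stood at 60.2, above THBS1 and ANGPTL4, the latter at 10.4, and VEGFC at 207.9. With AAV9-AIPL1wt, ANGPTL4 followed VEGFA at 249 ± 21.8, and its neighbour VEGFC (203 ± 52.1) did not differ from it, nor THBS1 (137 ± 55.8) from VEGFC, beyond their spread. With AAV9-GFP the neighbours VEGFC (113 ± 19.1) and THBS1 (109 ± 16.5) did not either.

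Of the receptors that these factors bind, KDR, FLT1 and TEK had too few reads for the test. Of 18 receptors and co-receptors, 11 were tested, and against the control 4 rose and 2 fell with AAV9-AIPL1co (median log2 fold change -0.02, as over all genes), 1 higher and 2 lower with AAV9-AIPL1wt, and 1 and 1 with AAV9-GFP. NRP1, a co-receptor of VEGFA and VEGFB, fell by 0.74 with AAV9-AIPL1co (SE 0.16, edgeR adjusted p = 0.00121) and by 1.30 with AAV9-AIPL1wt (SE 0.16, adjusted p = 3.35e-06). NRP2, a co-receptor of VEGFC, rose by 0.76 with AAV9-AIPL1co (SE 0.15, adjusted p = 0.000386), and ITGB3, an integrin subunit that binds thrombospondin 1, by 0.85 (SE 0.19, adjusted p = 0.0011). With control replicate 1 in the fit the receptors gave 0 higher and 2 lower with AAV9-AIPL1co, since NRP2 stood at 1510.1 and ITGB3 at 553 normalized counts in that library against 390.2 to 516 and 133 to 192 in the other controls.

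Among enzymes and partners that process the factors, 9 of 14 were tested, and 3 were higher and 2 lower with each AIPL1 vector and 0 with AAV9-GFP, against the control. FURIN, a protease that cleaves proVEGFC, rose by 0.97 with AAV9-AIPL1wt (SE 0.12, edgeR adjusted p = 2.22e-06) and by 0.34 with AAV9-AIPL1co (adjusted p = 0.0211), the second of which was 0.18 with control replicate 1 in the fit (adjusted p = 0.329). CCBE1, which brings VEGFC to its activating protease, fell with both AIPL1 vectors, with log2 fold changes of -0.99 and -0.62 (adjusted p = 4.74e-05 and 0.00195). CCBE1 stood at 298 normalized counts in control replicate 1, below the AAV9-AIPL1wt libraries at 341 to 486, and with that library in the fit the differences were -0.71 and -0.31 (adjusted p = 0.0273 and 0.276). The processing list then had 3 genes higher and 0 lower with AAV9-AIPL1wt and 1 higher with AAV9-GFP. The protease ADAMTS3 had few reads and was not called against the control with either vector (adjusted p = 0.213 and 0.407). MMP14, a membrane metalloprotease, was higher by 1.08 with AAV9-AIPL1co (adjusted p = 5.53e-07) and differed by -0.14 with AAV9-AIPL1wt (adjusted p = 0.277).

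Of 25 other secreted angiogenic factors 18 were tested. Against the control, 2 were higher and 7 lower with AAV9-AIPL1co (median -0.37), 7 higher and 5 lower with AAV9-AIPL1wt (median 0.12), and 0 higher and 2 lower with AAV9-GFP (median -0.03). With control replicate 1 in the fit the AAV9-AIPL1wt counts were 5 higher and 2 lower and the median was -0.09, and those of AAV9-AIPL1co were 1 and 8, with 1 lower for AAV9-GFP. CCN2, a matrix-associated protein that binds VEGFA, stood at 361, 342 and 401 normalized counts with AAV9-AIPL1co, at 1874, 2867 and 2192 with AAV9-AIPL1wt, at 629, 817 and 795 with AAV9-GFP and at 1021 and 1033 in the control, with 983 in control replicate 1. CCN2 was lower than in the control with AAV9-AIPL1co, by -1.50 (SE 0.15, edgeR adjusted p = 4.42e-07), and higher with AAV9-AIPL1wt, by 1.13 (SE 0.15, adjusted p = 4.83e-06), and between these vectors the log2 difference was -2.62 (SE 0.14, adjusted p = 5e-10). FGF2, a growth factor for endothelial cells, fell in all 3 transduced groups, with log2 fold changes of -1.48, -1.78 and -0.65 for the codon-optimized, wild-type and GFP vectors (adjusted p = 9.76e-09, 1.63e-09 and 0.00298), of which the last was -0.47 with control replicate 1 in the fit (adjusted p = 0.0515). TGFA, a ligand of the EGF receptor, fell with the AIPL1 vectors, by -1.44 and -0.54 on the log2 scale (adjusted p = 2.39e-07 and 0.00183), but TGFA stood at 335 normalized counts in control replicate 1, within the AAV9-AIPL1wt range of 303 to 420.4, and with that library the second difference was -0.30 (adjusted p = 0.160). EDN1, the vasoconstrictor endothelin 1, rose by 1.05 with AAV9-AIPL1wt (edgeR adjusted p = 0.0224), from few reads. EDN1 stood at 16.1, 19.6 and 17.8 normalized counts there and at 8.48 and 8.25 in the control, with 5.06 in control replicate 1.

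Of 24 other antiangiogenic factors 14 were tested, and 5 were higher and 2 lower with AAV9-AIPL1co, 5 higher and 1 lower with AAV9-AIPL1wt, and 0 called with AAV9-GFP, against the control, and with control replicate 1 in the fit 4 were higher and 1 lower with each AIPL1 vector. Among all genes in the main fit, 22.4% were higher and 24.5% lower than in the control for the codon-optimized vector. The shares for the wild-type vector were 26.4% and 30%. ADAMTS1, a protease that binds VEGFA, rose with both AIPL1 vectors, by 0.92 and 1.27 (SE 0.11 and 0.12, edgeR adjusted p = 5.78e-06 and 9.93e-08). VASH1, vasohibin, rose 2.29-fold with AAV9-AIPL1co (adjusted p = 0.000734), and TIMP3, a matrix inhibitor that blocks VEGFA from KDR, rose 2.11-fold with AAV9-AIPL1wt (adjusted p = 0.00171). SEMA3A, a rival of VEGFA for NRP1, fell with both, with log2 fold changes of -1.08 and -2.17 (edgeR adjusted p = 0.0114 and 0.00011). SEMA3A had few reads, at 8.48 to 14.7 normalized counts with AAV9-AIPL1co and 3.73 to 8.05 with AAV9-AIPL1wt. The control had 26.4 and 23.1, and control replicate 1 had 36.3. In the families of the members, 12 other genes were in the table and 2 were tested: ANGPTL7 was lower with AAV9-AIPL1co (-2.81, adjusted p = 4.01e-05) at 2.26 to 29.7 normalized counts, and THBS3 differed by -0.36 (adjusted p = 0.0846).

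VEGFA and ANGPTL4 are both targets of the hypoxia-inducible factors, and 22 other targets formed a list, of which 21 were tested. Against the control 1 was higher and 15 lower with AAV9-AIPL1co (median -0.89), 1 higher and 14 lower with AAV9-AIPL1wt (median -1.03), and 0 higher and 13 lower with AAV9-GFP (median -0.60), against medians of all genes of -0.02, -0.04 and 0.01. PDK1, which restrains pyruvate oxidation, fell in these groups, with log2 fold changes of -2.82, -3.17 and -1.24 (edgeR adjusted p = 2.33e-08, 6.59e-09 and 0.00298). CA9, a carbonic anhydrase, gave -3.05, -3.29 and -1.59, P4HA1, a collagen hydroxylase, gave -2.18, -2.08 and -1.11 and BNIP3, a mitophagy receptor, gave -1.69, -1.75 and -0.97, and the highest adjusted p among these was 0.0127. VEGFA was not called beside them, and ANGPTL4 rose with AAV9-AIPL1wt. HIF1A, an oxygen-regulated subunit, fell, with log2 fold changes of -1.03, -0.89 and -0.60 (adjusted p = 7.85e-06, 1.92e-05 and 0.0146), and of 7 oxygen-sensing genes tested 2 were higher and 2 lower with AAV9-AIPL1co, 3 rose and 1 fell for AAV9-AIPL1wt, and 1 fell for AAV9-GFP. EPAS1, of the same list, stood at 3911, 3554 and 3027 normalized counts with AAV9-AIPL1co. The control had 2440 and 2053, and control replicate 1 had 2763. With that library in the fit, EPAS1 was higher with AAV9-AIPL1co by 0.53 (edgeR adjusted p = 0.0065). It was not called with AAV9-AIPL1wt or AAV9-GFP there (adjusted p = 0.0876 and 0.398).

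The control libraries themselves differed in this list. BNIP3 stood at 928 and 1001 normalized counts in the controls of the fit and at 359 in control replicate 1, beside 281 to 337 with AAV9-AIPL1co and 404 to 562 with AAV9-GFP. PDK1 stood at 212 in control replicate 1 against 438 and 455 in the other controls, P4HA1 at 438 against 833 and 907 and CA9 at 16.0 against 70.7 and 118, in each case within the range with AAV9-GFP. With that library in the fit the falls with AAV9-GFP were no longer called for BNIP3 (adjusted p = 0.149) and CA9 (adjusted p = 0.198), while those of the 4 genes with the AIPL1 vectors were. With control replicate 1 in the fit, 12 of the 21 hypoxia targets were lower with each AIPL1 vector and 7 with AAV9-GFP.

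Of the PPAR targets beside ANGPTL4, 9 of 12 were tested, and 3 were higher and 1 lower with AAV9-AIPL1wt than in the control, 2 and 0 with AAV9-AIPL1co, and 0 called with AAV9-GFP. PLIN2, a lipid droplet coat protein, rose by 1.48 with AAV9-AIPL1wt (SE 0.13, edgeR adjusted p = 5.17e-08) and by 0.97 with AAV9-AIPL1co (SE 0.12, adjusted p = 7.55e-06). CPT1A, which admits fatty acids to mitochondria, rose by 1.35 and 0.68 (adjusted p = 3.18e-08 and 6.53e-05). PDK4 rose by 3.05 with AAV9-AIPL1wt (SE 0.62, adjusted p = 0.000413) from low counts, at most 25.2 against 2.83 and 0.825 in the control, with 16.0 in control replicate 1, and with that library in the fit the difference was 1.24 (adjusted p = 0.118). Between the AIPL1 vectors PLIN2 and CPT1A were lower with the codon-optimized one, with log2 differences of -0.51 and -0.66 (adjusted p = 0.00107 and 2.68e-05), as ANGPTL4 was.

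**Figure D5:**
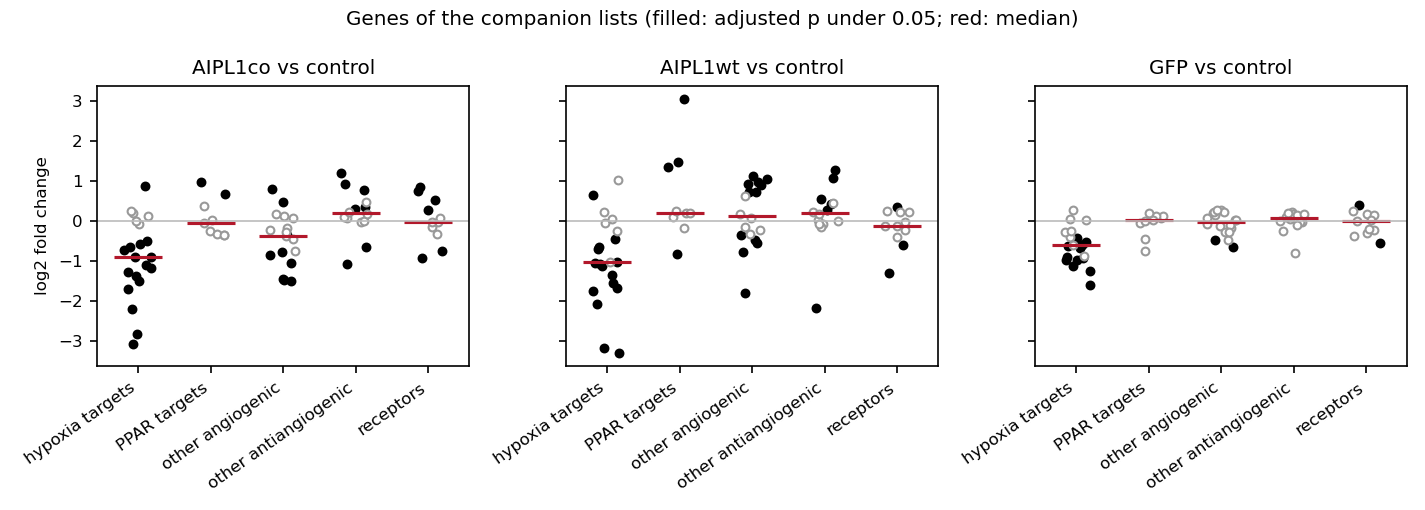
Log2 fold change against the control (vertical axis) of each tested gene of 5 lists, in 1 panel per vector, filled where the edgeR adjusted p was under 0.05, with the list median as a red line. Hypoxia targets lie mostly below 0 in all 3 panels, with medians of -0.89, -1.03 and -0.60, and the other lists spread around 0.

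Across the 11 libraries of the fit, the genes whose log2 scaled counts followed a member most closely were ST6GAL1, DUSP10 and GLMP for ANGPTL2 (Pearson r = 0.988, 0.988 and 0.987) and PLK2, ZNF544 and ARHGAP29 for THBS1 (0.981 and 0.980 for the closest pair). For VEGFB they were DDX39BP2, CERS4 and CEBPB (0.985, 0.985 and 0.982), for VEGFC CDC42EP4 and ZFP36 (0.983 and 0.970) and for ANGPTL4 DTX3L, MIR22HG and MCL1 (0.978 and 0.977 for the closest pair). For VEGFA they were GTPBP2, the unnamed gene ENSG00000285744 and TRIB3 (0.931, 0.891 and 0.880) and for SERPINF1 WDR59, RAD52 and NUDT2 (0.932, 0.923 and 0.906). These are descriptions over libraries that fall in 4 groups, so they hold the differences between groups as well as the spread within them.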

How the data were processed

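Bulk poly(A) RNA-seq was measured in 12 libraries. The authors aligned reads to GRCh38 with STAR 2.7.10b and counted them per gene over the exons of Gencode 43 with HTSeq 0.11.1, without strand, and deposited raw counts, in which a read shared by 2 genes is set aside. Of all reads 13.2% to 24.3% mapped to several places, 7.82% to 8.71% were shared by genes and 4.60% to 7.22% lay outside exons, and these rows stayed out of library sizes and tests. Depth limits genes of a few reads, as stated beside them.

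Counts were scaled by TMM, filtered with filterByExpr at a minimum count of 10 and tested by the quasi-likelihood test of edgeR 4.0.16 in R 4.3.3 over 11 libraries, with group as the only term and the Benjamini-Hochberg adjustment over 13896 genes. Normalized counts put all 12 libraries on 1 TMM scale, and levels per kilobase used canonical transcript lengths of Gencode 44, as did positions. Differences carry a standard error and a 95% interval from that fit. The steps were tested on simulated data.

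The members and gene lists were chosen with earlier results of these data known. Named genes were the 10 members, up to 4 genes of each list by size of fold change at an adjusted p under 0.05, and the 3 genes closest to each member. Some of these genes are not reported here. The lists were receptors, other family members, other angiogenic factors, other antiangiogenic factors, processing, hypoxia targets, oxygen sensing, PPAR targets and markers of pigment epithelium, endothelium, fibroblasts and neural retina. Alternatives were other scalings, filters and fits, DESeq2 1.42.0, limma voom 3.58.1, STAR counts, the file date and each library left out. Those limited to 1 file date, the within-date ratios, the strand sums and the lists and their named genes with all 12 libraries were chosen after seeing the data.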

Additional observations from a re-analysis of the deposited data

Results flagged for a closer look

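Control replicate 1, which was in no comparison of the main analysis, had higher normalized counts than both other controls for 5 members. VEGFA stood at 1723 there against at most 1421 in the other controls, VEGFB at 1229 against 973, VEGFC at 469.7 against 233, ANGPTL2 at 207 against 128 and PGF at 9.28 against 0.943. In the other direction, ANGPTL4 was at 0.159 and THBS1 at 0.290 times the mean of control replicates 2 and 3. Control replicate 1 was the only control of the first file date, so among the controls the library and the date cannot be told apart. The transduced groups held both dates, with 2 libraries of the first and 1 of the second. Their ANGPTL4 means in normalized counts, first date against second, were 84.9 against 80.1 (AAV9-AIPL1co), 486 against 424 (AAV9-AIPL1wt) and 115 against 131 (AAV9-GFP). For THBS1 they were 287 against 234, 868 against 1460 and 904 against 737, in the same order. The part of the date in the control values was not tested.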

How the results depend on the processing

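Over 28 alternatives, 1048 of 1154 values of the members kept their direction and their side of the threshold. A further 58 values that were called in neither fit turned sign, 24 no longer passed the threshold and 16 came to pass it. The last 8 reversed, meaning that the sign turned and the value was called in at least 1 of the fits compared. STAR counts differed from the deposited counts at 0 features, so that alternative could not change a value. The stricter rule left 2 members called for AAV9-AIPL1co against the control, 1 for AAV9-AIPL1wt against it, 2 for AAV9-AIPL1co and 1 for AAV9-AIPL1wt against AAV9-GFP, and 3 between the AIPL1 vectors. With all 12 libraries AAV9-AIPL1wt against the control gave 1 member called, beside 6818 of 13693 genes. With a file date term added it gave also 1, beside 6656 of 13693. The main fit gave 4, beside 7828 of 13896. AAV9-GFP against the control gave 2 calls with no filter, 1 with DESeq2, 3 with only those groups fitted and 3 in the first file date. Leaving out 1 library gave 5 to 5 calls between the AIPL1 vectors, 3 to 4 for AAV9-AIPL1co beside the control or AAV9-GFP, 3 to 4 for AAV9-AIPL1wt and the control, 2 to 3 for it and AAV9-GFP, and 0 to 2 for AAV9-GFP against the control, the 2 without AAV9-AIPL1wt replicate 1 or 2. Over all genes that last comparison had 1245 calls, 1956 and 2674 without those libraries, 138 and 58 without AAV9-GFP replicate 1 and 2, 122 and 0 without control replicate 2 and 3, 75 with GC offsets, 424 with a file date term, 1542 by DESeq2, 3288 with only those groups fitted and 6686 in the first file date. Leaving out 1 library gave 4658 to 6138 calls over all genes between the AIPL1 vectors. Beside AAV9-GFP it gave 2965 to 5311 for AAV9-AIPL1co and 6171 to 7195 for AAV9-AIPL1wt. Beside the control it gave 4207 to 7355 for AAV9-AIPL1co and 5715 to 7767 for AAV9-AIPL1wt. The cause of these shifts was not tested.

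Of the 8 reversals, 7 came in the first file date with control replicate 1 as the lone control, which is assumed to vary like the other groups. There VEGFC differed from the control by -0.76 and -0.26 with AAV9-AIPL1co and AAV9-AIPL1wt and by -0.99 with AAV9-GFP, ANGPTL4 by 2.15 with AAV9-AIPL1co and 2.59 with AAV9-GFP, and THBS1 by 1.39 with AAV9-AIPL1wt and 1.46 with AAV9-GFP. The other was ANGPTL4 with AAV9-AIPL1co, at 0.15 with all 12 libraries and a file date term. Of the reversed differences, only those of VEGFC with AAV9-AIPL1wt and ANGPTL4 with AAV9-AIPL1co had been called in the main fit. The cause was not tested beyond the values of control replicate 1.

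Replicate numbers were not used to pair the samples in the main fit. The correlation of deviations passed 0.1 in 3 of 15 same-numbered pairs (-0.0682 to 0.211). No test set these against differently numbered pairs, so they do not settle whether the samples were paired. Over all genes a replicate block gave 6218 calls between the AIPL1 vectors, against 5771 in the main fit. For AAV9-GFP against the control it gave 1061, against 1245. With the replicate block, members called against the control were 4 for AAV9-AIPL1co and 3 for AAV9-AIPL1wt, those against AAV9-GFP 4 and 2, 5 between the AIPL1 vectors and 0 for AAV9-GFP against the control, and the VEGFB difference of AAV9-AIPL1wt to the control was 0.34 (edgeR adjusted p = 0.0692).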

Other observations

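Markers of cell types beside those of the report were read as values only. Among genes of fibroblasts and pericytes, ACTA2, smooth muscle actin, stood at 30.8 to 59.0 normalized counts with AAV9-AIPL1wt and at 203 to 298 in the other 9 libraries, while LUM was at 0 in all 12 and DCN at most 1.0. Of the 5 of 9 genes of that list tested against the control, 1 was higher with AAV9-AIPL1co, 1 was higher and 2 lower with AAV9-AIPL1wt, and 1 was higher with AAV9-GFP. Of 4 neural retina genes tested, 1 was higher and 1 lower with each AIPL1 vector and 1 was higher with AAV9-GFP. Of 9 pigment epithelium genes tested, 1 was higher and 4 lower with AAV9-AIPL1co, 1 higher and 2 lower with AAV9-AIPL1wt and 0 were called with AAV9-GFP by edgeR. With control replicate 1 in the fit the lower counts of that list were 2 and 1, the neural retina list had 2 lower with AAV9-AIPL1wt, and the fibroblast list had 0 higher with each vector. Of the endothelial list 1 gene was tested and was called in none of these 3 comparisons. The part of these genes in the values of the 10 secreted factors was not tested.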
